A study of Sus scrofa with 14 samples.

Results

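The genes described are interferon-stimulated genes, those switched on when interferons reach a cell. Members were the rows of the deposited expression table whose gene name is on a list of 44 names, and 33 of the 13644 genes of the table matched. The 11 names without a row were XAF1, IRF9, RIGI (which is the same gene as DDX58, another name on the list), IFI6, PARP14, ISG20, RTP4, GBP1, IFIT3, RNF213 and UBA7. RNA was sequenced from left ventricular slices of hearts of female Yorkshire pigs of 3 months, in 14 libraries of 5 groups. D0 (n = 2) is fresh tissue, and the labels give 12 days in culture for the other slices. For the sequenced slices the text of the paper gives a range of days that begins earlier. Ctrl (n = 4) was static culture with electrical pacing in medium with serum, VEGF and FGF. TD (n = 4) was the static culture with tri-iodothyronine (T3) at 100 nM and dexamethasone (Dex, a synthetic glucocorticoid) at 1 µM. MC (n = 2) was the Cardiac Tissue Culture Model (CTCM), a device that stretches slices in time with pacing, without T3 and Dex. MT (n = 2) was the CTCM with T3 and Dex. The CTCM and static cultures also differed in pacing voltage, support, volume of medium and how often it was changed, and these cannot be told apart from stretch. In the labels, the entry for treatment lists T3 with Dex on all 14 libraries, D0 included, while the group entry, which was used here, names them for TD and MT alone. The group entry of MT-2 names T4 in place of T3, and the sources do not say how many pigs the libraries came from, so p-values measure the spread between these libraries, which may be technical.

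Type I interferons bind the receptor IFNAR1/IFNAR2, and the kinases JAK1 and TYK2 then activate transcription factors that bind a DNA element (the interferon-stimulated response element, ISRE) before their target genes. The targets include sensors of viral RNA (IFIH1, DDX58, DHX58), effectors that block viral replication (IFIT, OAS and MX proteins), and ISG15, a small ubiquitin-like protein that HERC ligases attach to other proteins and that USP18 removes. Many of them are also expressed at a low level without infection. In bulk tissue, fewer cells of a type and less RNA per cell cannot be told apart.

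The promoters below show where the core of the ISRE stands in members that the comparisons turn on. The core was searched as GAAANNGAAA on both strands (on the other strand it reads TTTCNNTTTC) in the window from 250 bases before to 50 bases after each RefSeq gene start on Sscrofa11.1. It was present in 15 of the 31 members with a RefSeq start (48.4%) and in 700 of 19559 promoters of the same length (3.58%). Matches may overlap each other, and a match is a string of letters rather than a shown binding site. Capitals mark the core, each stretch is written 5′ to 3′ in the direction of the gene, and lies before the start.
ISG15 (chr6:63363047-63363126, plus strand): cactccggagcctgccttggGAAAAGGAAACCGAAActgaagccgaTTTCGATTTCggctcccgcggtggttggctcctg
USP18 (chr5:70183158-70183237, plus strand): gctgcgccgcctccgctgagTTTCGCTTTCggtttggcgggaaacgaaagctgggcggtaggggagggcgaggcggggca
HERC5 (chr8:130591194-130591273, minus strand): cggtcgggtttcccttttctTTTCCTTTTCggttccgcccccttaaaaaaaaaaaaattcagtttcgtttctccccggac
OAS2 (chr14:38847698-38847777, minus strand): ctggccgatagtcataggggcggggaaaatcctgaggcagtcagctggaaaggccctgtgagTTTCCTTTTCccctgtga
SP110 (chr15:131226544-131226623, minus strand): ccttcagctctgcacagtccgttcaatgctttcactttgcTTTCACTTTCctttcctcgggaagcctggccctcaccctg
BST2 (chr2:60305085-60305164, plus strand): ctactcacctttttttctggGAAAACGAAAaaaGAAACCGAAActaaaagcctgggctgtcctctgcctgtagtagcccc
ISG15 held 3 cores, of which the first 2 share bases, and BST2 held 2. The same letters were not found in the windows of PARP12 and HERC6.

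The libraries held between 8381252 and 19264787 reads in genes whose reads could be solved from the steps of the deposited FPKM (fragments normalised to transcript length and library depth), with MC-2 and MT-2 the shallowest at 8381252 and 8879278. Of the genes expected at 20 reads or more from the D0, Ctrl and TD libraries, MT-1 listed 5.83% at 0 and MT-2 listed 8.56%, against at most 0.379% in each other library. The glucocorticoid targets were checked against the labels. FKBP5, a chaperone gene induced by glucocorticoids, stood at 22.9 and 23.0 FPKM in D0, 17.4 to 32.6 across Ctrl, 73.1 to 89.4 across TD, 79.8 and 64.5 under MC, and 55.6 and 51.9 under MT. TSC22D3, another target, stood at 22.9 to 30.8 FPKM in Ctrl, 55.3 to 62.4 across TD and 50.9 and 55.2 under MC. Both genes were higher in MC than in Ctrl (log2 fold changes 1.52 and 1.00, limma adjusted p = 0.00321 and 0.00291), although the group entry of MC names no Dex. The treatment entry names it for every library, so whether MC received Dex cannot be told from the labels, and results that rest on MC are those of the libraries labelled MC. Among tissue markers, 5 of the 7 cardiomyocyte genes on the list had a row, and TNNI3 and TTN had none. The summed level of the 5 was 22.4 to 30.5 FPKM in D0, 0.770 to 2.16 across Ctrl, 0.272 to 1.08 across TD, 4.49 to 5.33 under MC and 25.5 to 43.9 under MT. Of these, 4 were tested, and all 4 were called lower than D0 in Ctrl, TD and MC. None was called in MT, where their median log2 fold change was -0.54, so the sum does not stand for each marker.

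Among the members tested, the largest difference between D0 and cultured tissue was that of ISG15. ISG15 stood at 371 and 243 FPKM in the D0 libraries. It stood at 45.8, 63.6, 43.0 and 33.7 across Ctrl, at 30.2, 21.9, 26.1 and 22.5 across TD, at 21.7 and 39.9 under MC, and at 39.7 and 49.6 under MT. Both D0 libraries lay above all 12 cultured libraries with no overlap. In reads these were 5655 and 3358 in D0 and between 244 and 1072 in the cultured libraries. The log2 fold change against D0, on the scale of log2(FPKM + 1), was -2.70 in Ctrl (SE 0.28, limma adjusted p = 6.17e-05), -3.54 in TD (SE 0.28, adjusted p = 2.82e-06), -3.31 in MC (SE 0.32, adjusted p = 2.63e-05) and -2.73 in MT (SE 0.32, adjusted p = 0.000106). These 4 calls were kept in every alternative setting tried, including the fits without 1 of the D0 libraries. ISG15 is on chromosome 6 (63363201 to 63364211, plus strand), and its exons overlap those of LOC110261384 on the other strand, so reads of this pair cannot be told apart where strand was not used in the counting.

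ISG15 alone carried 71.4% and 62.1% of the summed FPKM of the members in the D0 libraries, and between 13.5% and 28.0% in the cultured libraries. Without ISG15 the sum was 149 and 148 FPKM in D0, and it lay between 128 and 163 in the cultured libraries. Ctrl-2, at 163 FPKM, was the only cultured library above D0 in this sum of the other 32 members. All other cultured libraries lay below both D0 libraries, the nearest being TD-3 at 146 FPKM.

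Of the 30 members tested, between 3 and 12 were called against D0, with ISG15 among them in each comparison. In Ctrl against D0, 3 were called by limma at an adjusted p below 0.05 (10%), against 8.45% of all 11527 genes tested. TD gave 5 of 30 called (16.7%) against 13.9%, in MC 7 of 30 (23.3%) against 17.6%, and in MT 12 of 30 (40%) against 27.5%. The members called lower numbered 2 for Ctrl, 5 for TD, 6 for MC and 10 for MT, or 6.67%, 16.7%, 20% and 33.3% of those tested, and 4.95%, 8.90%, 11.3% and 18.1% of all genes were called lower. The members called higher numbered 1 for Ctrl, none for TD, 1 for MC and 2 for MT, against 3.50%, 5.01%, 6.34% and 9.38% of all genes. The median log2 fold change of the members was -0.12, -0.22, -0.30 and -0.38 in the same order, and that of all genes was -0.02, -0.02, -0.05 and -0.11. These 4 comparisons share the same 2 D0 libraries. Without D0-1 or without D0-2 the count for Ctrl was 1 and that for TD was 1, that for MC was 2 and 3, and that for MT was 5 and 6. Without Ctrl-1, Ctrl-3, Ctrl-4, TD-2 or TD-4 the Ctrl count was also 1, and without MC-2 the MC count was 3. The fit took 1 spread per gene for all groups, but the groups were not equally spread. The median SD of a gene within a group, in log2 units, was smallest for D0 (0.072) and largest for MT (0.323). It was 0.174 for Ctrl, 0.234 for MC and 0.262 for TD. Weighting each library by its own scatter (limma arrayWeights) gave 14 for Ctrl, 14 for TD and 4 for MT. The higher count of MT than of Ctrl and TD was therefore not kept under this weighting. Fitting only the groups compared, with equal weights, also lowered the MT count, to 5.

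**Figure D1:**
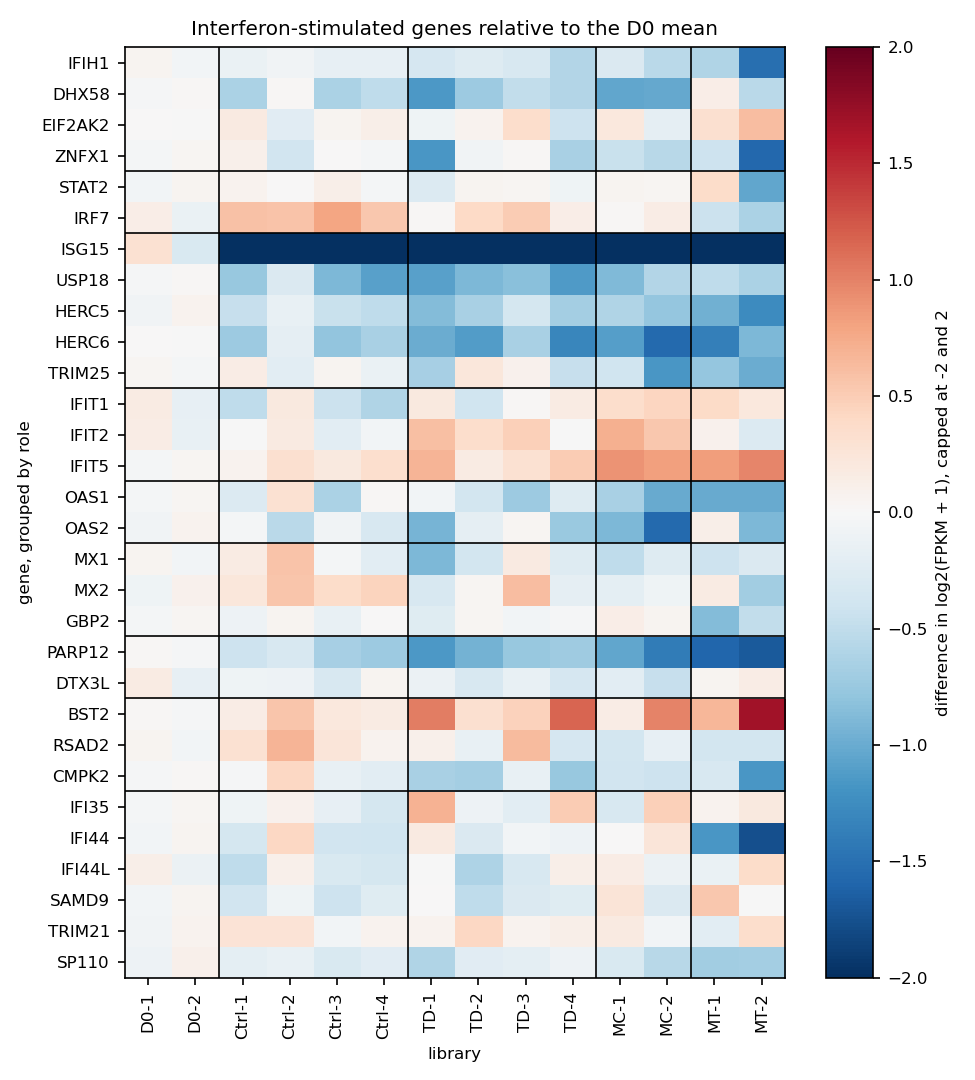
Difference of each library from the D0 mean in log2(FPKM + 1), for the 30 members tested (rows, grouped by role, black lines between roles) in the 14 libraries (columns, black lines between groups), with red above and blue below D0 and colours capped at -2 and 2. ISG15 is low in all 12 cultured libraries, while most other rows hold both colours.

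Besides ISG15, the members of its system with a row were USP18, HERC5, HERC6 and TRIM25. Of these 4, 1 was called lower for Ctrl (USP18), 3 for TD, 2 for MC and 3 for MT, and none was called higher, where 4.95%, 8.90%, 11.3% and 18.1% of all genes were called lower. USP18, the protease that removes ISG15 from proteins and also restrains the interferon receptor, stood at 4.05 and 4.18 FPKM in D0. It stood at 2.02, 3.20, 1.75 and 1.40 across Ctrl, 1.40, 1.74, 1.87 and 1.33 across TD, 1.78 and 2.41 under MC, and 2.58 and 2.30 under MT. All cultured libraries lay below both D0 libraries. USP18 fell in Ctrl (-0.76, SE 0.21, adjusted p = 0.0419) and in TD (-0.99, SE 0.21, adjusted p = 0.00627), and the calls were lost without either D0 library. The Ctrl call was also lost in 11 of the other settings.

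HERC5, in humans the main ligase that attaches ISG15, stood at 1.30 and 1.51 FPKM in D0, 0.744, 1.17, 0.764 and 0.694 across Ctrl, 0.320, 0.533, 0.883 and 0.498 across TD, 0.586 and 0.407 under MC, and 0.232 and 0 under MT. It was lower than D0 in TD (-0.64, SE 0.18, adjusted p = 0.0313), MC (-0.69, SE 0.21, adjusted p = 0.0380) and MT (-1.11, SE 0.21, adjusted p = 0.0020). MT-2 listed HERC5 at 0, where 45.3 reads were expected from the D0, Ctrl and TD libraries and its depth. HERC6, which takes the place of HERC5 in mice, stood at 8.70 and 8.63 FPKM in D0, 4.84, 7.57, 4.62 and 5.15 across Ctrl, 3.86, 3.45, 5.17 and 2.90 across TD, 3.49 and 2.30 under MC, and 2.74 and 4.19 under MT. It was lower in TD (-1.02, SE 0.24, adjusted p = 0.0103), MC (-1.33, SE 0.27, adjusted p = 0.00511) and MT (-1.13, SE 0.27, adjusted p = 0.00876). Both ligases lay below D0 in all cultured libraries. The HERC5 calls in TD and MC were lost in 10 of 26 and 12 of 24 settings, those without D0-1 or D0-2 among them. Without D0-1 all 3 HERC6 calls were lost, without D0-2 those in TD and MT, and without MC-2 that in MC.

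TRIM25, a ligase that helps the sensor RIG-I signal, stood at 13.7 and 12.9 FPKM in D0, 11.4 to 14.8 across Ctrl, 7.99 to 15.7 across TD, 9.88 and 5.38 under MC, and 7.35 and 6.20 under MT. It was called lower only in MT among the 4 comparisons with D0 (-0.88, SE 0.30, adjusted p = 0.0467), and 14 of 25 settings lost the call.

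**Figure D2:**
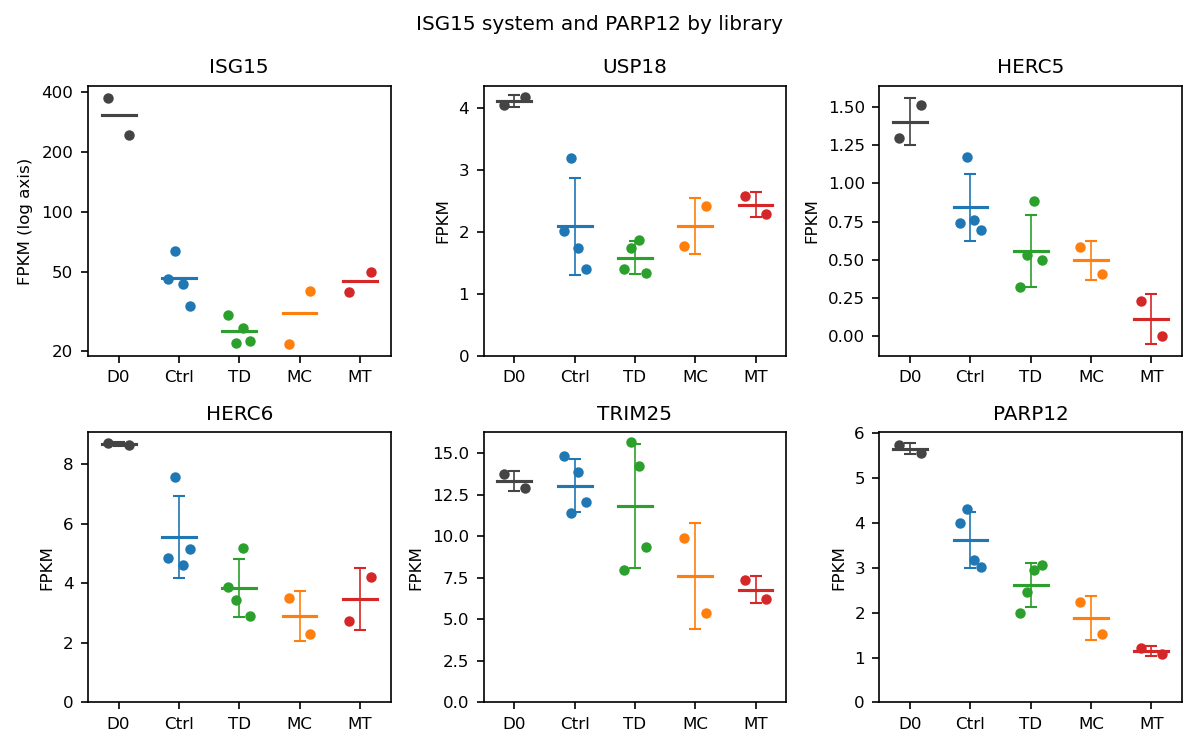
FPKM of 6 members (1 panel each) by group, with 1 point a library, the horizontal line at the group mean and, on the linear panels, the bar at 1 SD (n = 2 to 4). The ISG15 axis is logarithmic, with D0 at 371 and 243 FPKM and the cultured libraries between 21.7 and 63.6.

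PARP12, an enzyme that adds single ADP-ribose units to proteins, fell in 3 of the 4 culture conditions. It stood at 5.74 and 5.57 FPKM in D0, 4.0, 4.30, 3.18 and 3.01 across Ctrl, 1.99, 2.47, 2.95 and 3.07 across TD, 2.23 and 1.53 under MC, and 1.22 and 1.07 under MT. No cultured library reached D0, and the MT libraries were the lowest of all. The log2 fold change against D0 was -0.89 in TD (SE 0.19, adjusted p = 0.00573), -1.22 in MC (SE 0.22, adjusted p = 0.00206) and -1.63 in MT (SE 0.22, adjusted p = 0.000212), and in Ctrl it was -0.53 (adjusted p = 0.112). The MC and MT calls were kept in all 25 settings, and the TD call was lost without D0-1 or D0-2. PARP12 is on chromosome 18 (9673841 to 9715169, plus strand). DTX3L, a ubiquitin ligase that works with PARP9, stood between 0.462 and 1.26 FPKM in all libraries and was not called against D0.

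Of the sensors of viral RNA on the list, IFIH1 and DHX58 were each called lower in 1 of the 4 comparisons with D0. IFIH1 (MDA5, a sensor of long double-stranded RNA) stood at 1.95 and 1.76 FPKM in D0, 1.61, 1.73, 1.54 and 1.54 across Ctrl, 1.25, 1.39, 1.28 and 0.906 across TD, 1.34 and 0.968 under MC, and 0.880 and 0 under MT. All cultured libraries were below both D0 libraries, and IFIH1 was called lower in MT (-1.06, SE 0.25, adjusted p = 0.00800), a fit that takes the 0 of MT-2 as measured. The IFIH1 call was lost without D0-1 and when only the groups compared were fitted, and was kept without MT-2. DHX58 (LGP2, a helicase that tunes the other sensors) stood at 2.05 and 2.18 FPKM in D0, 0.996 to 2.15 across Ctrl, 0.401 to 1.21 across TD, 0.513 and 0.536 under MC, and 2.42 and 1.15 under MT. It was called lower in MC (-1.03, SE 0.29, adjusted p = 0.0263), and without either D0 or either MC library the call was lost. EIF2AK2 (PKR, the kinase that stops translation on double-stranded RNA) stood between 1.26 and 3.62 FPKM in the 14 libraries and ZNFX1, a helicase that binds viral RNA, between 3.10 and 12.1, and neither was called against D0. DDX58 did not pass the filter on low values and reached at most 0.513 FPKM.

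Of the transcription factors on the list, IRF7, which drives interferon genes, was higher in Ctrl. It stood at 4.67 and 3.74 FPKM in D0, 6.75, 6.69, 7.96 and 6.53 across Ctrl, 4.28, 5.82, 6.38 and 4.71 across TD, 4.28 and 4.73 under MC, and 2.83 and 2.34 under MT. All 4 Ctrl libraries were above both D0 libraries and both MT libraries were below them. The rise in Ctrl was 0.62 (SE 0.17, adjusted p = 0.0448), and 16 of 27 settings lost the call. STAT2, part of a factor that binds the ISRE, stood between 3.04 and 5.32 FPKM in 13 libraries and at 1.38 in MT-2, and was not called in any of the 9 comparisons.

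None of the 3 IFIT genes with a row, whose proteins bind foreign RNA, was called lower than D0. IFIT5 stood at 6.87 and 7.32 FPKM in D0, 7.47, 9.16, 8.29 and 9.25 across Ctrl, 12.0, 8.02, 8.96 and 10.6 across TD, 14.1 and 13.2 under MC, and 13.4 and 14.9 under MT. All cultured libraries lay above both D0 libraries. IFIT5 rose in MC (0.86, SE 0.19, adjusted p = 0.00800) and MT (0.90, SE 0.19, adjusted p = 0.00414), and both calls were lost when libraries were rescaled to equal sums. The MC call was also lost without either D0 library. IFIT1 stood at 5.30 and 4.01 FPKM in D0, 2.72 to 5.46 across Ctrl and 5.51 to 6.54 in the 4 CTCM libraries, and was not called in any comparison.

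BST2 (tetherin, which holds budding virus at the membrane) was the other member above D0 in all cultured libraries. It stood at 9.50 and 9.17 FPKM in D0, 10.4, 14.2, 11.0 and 10.6 across Ctrl, 20.1, 12.0, 13.2 and 22.2 across TD, 10.5 and 19.5 under MC, and 15.4 and 32.1 under MT. The difference was called in MT (1.17, SE 0.37, adjusted p = 0.0314), and without D0-1, D0-2 or MT-2 it was not. BST2 was high in TD-1, TD-4, MC-2 and MT-2, and the sum of FPKM over all genes was also high there, at 409531 to 458928 in TD-1, TD-4, MC-2, MT-1 and MT-2 against 287151 to 350763 in the others. The part of that sum in the level of BST2 was not tested.

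**Figure D3:**
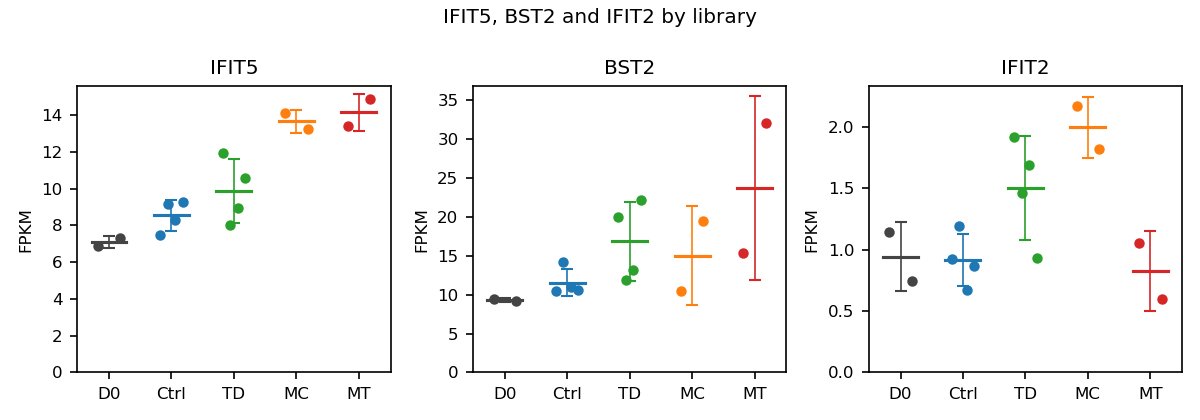
FPKM of IFIT5, BST2 and IFIT2 by group, with 1 point a library, the line at the group mean and the bar at 1 SD (n = 2 to 4). IFIT5 and BST2 lie above both D0 libraries in all 12 cultured libraries, and IFIT2 is highest in MC (2.17 and 1.82 FPKM).

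In all, 6 members (IFIH1, ISG15, USP18, HERC5, HERC6 and PARP12) had the 12 cultured libraries below both D0 libraries, which is 20% of the members tested against 12.9% of all genes tested. IFIT5 and BST2 had them above, against 7.78% of all genes.

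OAS enzymes make a messenger that activates the RNA-cutting enzyme RNase L. OAS2 stood at 2.64 and 3.02 FPKM in D0, 2.72, 1.65, 2.63 and 2.05 across Ctrl, 1.01, 2.38, 2.91 and 1.29 across TD, 1.05 and 0.308 under MC, and 3.14 and 1.04 under MT. It was lower in MC (-1.23, SE 0.37, adjusted p = 0.0394), and MT-1 was the highest of all 14 libraries. Without D0-1, D0-2 or MC-2 the OAS2 call was lost, as it was without Ctrl-1, Ctrl-3 or Ctrl-4. OAS1 stood at 0.952 and 1.05 FPKM in D0, or 23 reads each, and was listed at 0 in MC-2, MT-1 and MT-2, where 14.5 and 9.6 reads were expected in the MT libraries. The limma test called OAS1 lower in MT (adjusted p = 0.0212), but not without D0-1, D0-2 or MT-2.

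The large GTPases MX1 and MX2, which trap viral ribonucleoproteins, were not called in any of the 9 comparisons. MX1 stood at 16.2 and 14.9 FPKM in D0, 13.3 to 23.6 across Ctrl, 7.91 to 17.7 across TD, 10.6 and 12.8 under MC, and 11.4 and 12.6 under MT. MX2 stood between 0.647 FPKM in MT-2 and 3.11 in TD-3. GBP2, a GTPase that coats vacuoles holding pathogens, stood at 1.37 and 1.49 FPKM in D0, 1.20 to 1.52 across Ctrl, 1.06 to 1.51 across TD, 1.65 and 1.53 under MC, and 0.334 and 0.737 under MT. Both MT libraries lay below all others, and both MC libraries lay slightly above all D0, Ctrl and TD libraries. GBP2 was lower in MT than in D0 (-0.68, SE 0.18, adjusted p = 0.0161), and the call was lost without D0-1 or D0-2.

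The remaining members called were 2 that fell in MT. SP110, a nuclear body protein, stood at 4.72 and 5.55 FPKM in D0, 3.95 to 4.54 across Ctrl, 3.04 to 4.73 across TD, 3.97 and 3.16 under MC, and 2.8 and 2.81 under MT (-0.69, SE 0.20, adjusted p = 0.0206, lost without D0-1 or D0-2). IFI44, a gene induced by interferon in many tissues, stood at 2.25 and 2.48 FPKM in D0, 1.64, 3.51, 1.57 and 1.54 across Ctrl, 2.82, 1.74, 2.25 and 2.15 across TD, 2.38 and 2.96 under MC, and 0.496 and 0 under MT. The MT libraries held 30 and 0 reads of IFI44 where 133.2 and 88.3 were expected. RSAD2 (viperin, which makes a nucleotide that stops viral polymerases), CMPK2, its neighbour and partner enzyme, IFI35, IFI44L, SAMD9 and TRIM21, an antibody receptor inside cells, were not called in any of the 9 comparisons. RSAD2 stood at 0.338 and 0.248 FPKM in D0 and reached 1.08 in Ctrl-2, and it was listed at 0 in MC-1, MT-1 and MT-2. CMPK2 stood between 0.0284 FPKM in MT-2 and 2.05 in Ctrl-2. The other 4 stood at 15.0 to 32.0 (IFI35), 3.35 to 7.67 (IFI44L), 3.12 to 7.45 (SAMD9) and 3.64 to 6.12 FPKM (TRIM21) over the 14 libraries.

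Besides ISG15, exons of STAT2, DDX58, OAS1, PARP9, DTX3L and SP110 overlap those of a neighbour in the annotation (IL23A, ACO1, RPH3A, SP140, or PARP9 and DTX3L with each other), so reads of these pairs may be shared where the counting used no strand, and for OAS1 and RPH3A, which lie on the same strand, in either case.

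Of the 12 members called in MT against D0, 4 (IFIH1, HERC5, OAS1 and IFI44) had a library listed at 0. Across members, MT-1 listed 3 at 0 and MT-2 listed 6, and no other library listed more than 2. In MT-2 these included IFIH1, with 118.4 reads expected, and CMPK2 had 1 read where 37.9 were expected. In MT-1 PARP9 had 2 reads with 45.5 expected, while in MT-2 it had 61 with 30.1 expected. OASL went the other way, with 92 reads in MT-1 and at most 11 in each other library. Without MT-2, which left MT-1 alone in its group, the calls of IFIH1, HERC5 and IFI44 were kept and that of OAS1 was lost. The 0 values of the MT libraries are given as listed. Beyond leaving out a library, the part of these gaps in the fitted differences of MT was not tested.

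**Figure D4:**
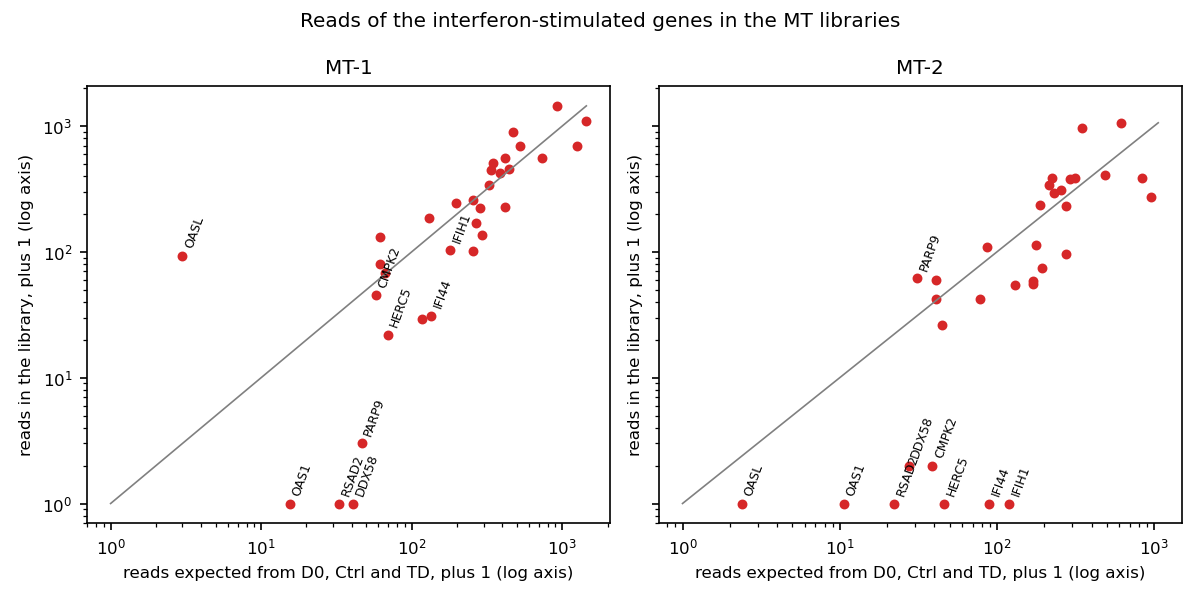
Reads of each of the 33 members in MT-1 and MT-2 (vertical, plus 1) against the reads expected from the D0, Ctrl and TD libraries at the depth of that library (horizontal, plus 1), both on log axes, with the grey line at equality. IFIH1, IFI44, HERC5, RSAD2 and OAS1 lie on the floor in MT-2, at 0 reads, and OASL lies far above the line in MT-1, at 92 reads.

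The effect of T3 and Dex in static culture was asked by TD against Ctrl. None of the 30 members was called by limma, against 3.48% of all genes tested (1.26% higher and 2.22% lower), and 6 had an unadjusted p below 0.05. Solved reads with voom called 0 and arrayWeights called 2. ISG15 was the nearest to a shift, with all 4 TD libraries below all 4 Ctrl libraries (30.2 FPKM at most in TD and 33.7 at least in Ctrl), at -0.84 (SE 0.23, adjusted p = 0.0713). Without MC-1 or MC-2, or without both, 1 member was called.

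MC against Ctrl addresses the device, with the reservation on the glucocorticoid targets above. Of the members, 1 was called higher and 1 lower (6.67% of 30), against 6.45% of all genes (2.30% higher and 4.16% lower). IFIT5 was higher in MC, where both libraries lay above all 4 Ctrl libraries (0.62, SE 0.16, adjusted p = 0.0432). PARP12 was lower, with both MC libraries below all of Ctrl (-0.68, SE 0.19, adjusted p = 0.0480). The IFIT5 call was lost in 13 of 25 settings and the PARP12 call in 20 of 25. Leaving out D0-1, D0-2, Ctrl-1, Ctrl-3, Ctrl-4, TD-3, MC-1 or MC-2 gave 0 calls, leaving out Ctrl-2, TD-2 or TD-4 gave 1, and leaving out MT-1 or MT-2 gave 6.

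MT against TD compares the device in the presence of T3 and Dex. Of the members 4 were called lower (13.3%) and none higher, against 10.1% of all genes in either direction (2.99% higher and 7.14% lower). IFI44 (-1.40, SE 0.25, adjusted p = 0.00497), IRF7 (-0.80, SE 0.17, adjusted p = 0.0132), PARP12 (-0.74, SE 0.19, adjusted p = 0.0252) and GBP2 (-0.61, SE 0.16, adjusted p = 0.0309) were lower in both MT libraries than in all 4 TD libraries. In the same order, these calls were lost in 3 of 24, 5 of 25, 11 of 25 and 13 of 24 settings. That of IFI44 rests on the 30 and 0 reads of the MT libraries. The count was 7 without TD-1 or MT-1 and 2 without TD-2, TD-3 or TD-4, and arrayWeights gave 0.

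MT against MC gave 2 members lower, IFI44 (-1.58, SE 0.29, adjusted p = 0.0110) and GBP2 (-0.77, SE 0.18, adjusted p = 0.0393), which is 6.67% against 3.19% of all genes (0.885% higher and 2.31% lower). GBP2 kept its call in 5 of 23 settings. The IFI44 call was lost in 4 of 23: without MC-2, with arrayWeights, with 1 weight per condition and when only the groups compared were fitted. It rests on the 30 and 0 reads of the MT libraries. The count was 6 without MT-1, 0 without MC-2, and 1 without any 1 of D0-1, D0-2, MC-1, Ctrl-1 to Ctrl-4, or TD-2 to TD-4.

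The interaction asked whether the difference between MT and MC was that between TD and Ctrl, and 2 members were called (6.67% against 4.67% of all genes, of which 2.06% were higher and 2.60% lower). IFI44 gave -1.70 (SE 0.36, adjusted p = 0.0174), a call lost without MC-2, with the replicate block and under both weightings, and it rests on the 30 and 0 reads of the MT libraries. IFIT2, whose protein blocks translation of viral RNA, stood at 1.14 and 0.746 FPKM in D0, 0.921, 1.19, 0.673 and 0.870 across Ctrl, 1.92, 1.46, 1.69 and 0.930 across TD, 2.17 and 1.82 under MC, and 1.06 and 0.594 under MT. It was high in MC and in 3 of the 4 TD libraries, and its interaction was -1.10 (SE 0.28, adjusted p = 0.0439), lost in 19 of 23 settings. The count was 5 without MT-1 and 1 without any 1 of D0-1, D0-2, Ctrl-1 to Ctrl-4, TD-1 to TD-3, MC-1 or MC-2. FKBP5 had an interaction in the same direction (-2.07, SE 0.32, adjusted p = 0.00359), and the part of the MC libraries' glucocorticoid targets in these 2 results was not tested.

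Within groups the members moved with particular libraries. Ctrl-2 was the highest Ctrl library in 25 of the 33 members (75.8%), including ISG15, USP18, HERC5, HERC6, OAS1, MX1 and MX2, against 37.1% of all genes tested. TD-1 and TD-4 were both below TD-2 and TD-3 in 10 members and both above in 8 (30.3% and 24.2%), against 33.7% and 30.2% of all genes, so this split was not larger in the members.

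The other genes of the pathway were taken from lists of its parts. None of 10 interferon genes on the list had a row. Of 4 interferon receptor chains tested, IL10RB, a chain of the interferon lambda receptor, was higher than D0 in all 4 culture conditions (log2 fold changes 0.70, 0.74, 1.00 and 0.90 across Ctrl, TD, MC and MT, adjusted p = 0.0152, 0.00722, 0.00303 and 0.00403). IFNAR1 was lower in MT (-0.74, adjusted p = 0.0321), at 13.8 and 12.8 FPKM against 24.2 and 21.7. IFNGR1, a chain of the interferon gamma receptor, was higher in MT than in D0 (0.61, adjusted p = 0.0308) and in TD (0.76, adjusted p = 0.0128), at 19.1 and 16.1 FPKM against 11.4 and 10.9 in D0 and 8.43 to 11.5 across TD. Of 10 JAK-STAT and IRF genes, only IRF8, a factor of myeloid cells, was called against D0 (-0.78 in MC and -1.03 in MT, adjusted p = 0.0246 and 0.00387). Without D0-1 or D0-2 the calls against D0 of IL10RB in Ctrl and TD, of IFNAR1 and IFNGR1 in MT and of IRF8 in MC were lost. The IFNAR1 call was also lost without MT-2, the IFNGR1 call without MT-1 and the IRF8 call in MC without MC-1 or MC-2.

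Upstream of interferon, STING1, the adaptor of cytosolic DNA sensing, was lower than D0 in TD, MC and MT (-0.997, -0.89 and -0.73, adjusted p = 0.00381, 0.0176 and 0.0308). It was also lower in TD than in Ctrl (-0.76, adjusted p = 0.0179). TLR3, an endosomal sensor of double-stranded RNA, was lower in Ctrl, TD and MC (-0.61, -0.67 and -0.58, adjusted p = 0.0227, 0.00836 and 0.0358), at 0.645 to 1.12 FPKM in these libraries against 1.89 and 2.08 in D0, and it stood at 1.75 and 1.91 under MT. Among 15 further interferon-stimulated genes tested, none was called against D0 in Ctrl or TD. Against D0, LGALS3BP, a secreted glycoprotein, was lower in MC, and in MT PNPT1 and TRIM22 were higher and LGALS3BP lower (a call kept in 7 of 25 settings). In the same list, PLSCR1 was higher in TD and in MC than in Ctrl (calls kept in 18 of 27 and 19 of 25 settings). TRIM22 was higher in MT than in TD, a call kept in 9 of 25. Of 10 sensing genes tested, the others called against D0 were UNC93B1, higher in Ctrl and TD, and TLR4, higher in MC and MT. Of 8 negative regulators tested, SOCS3 was higher and CISH lower in Ctrl, PTPN6 was lower in MC and MT, and SOCS1 was lower in MT. Without D0-1 all of these calls against D0, from STING1 to SOCS1, were lost except that of PTPN6 in MT, and without D0-2 all were lost except those of STING1 in TD and of PTPN6 and SOCS1 in MT. The Ctrl calls of UNC93B1 and SOCS3 were lost in 14 and 12 of 27 settings. The STING1 call in TD against Ctrl was lost without Ctrl-1, Ctrl-2, Ctrl-4, TD-2 or TD-4.

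CXCL10, a chemokine induced by interferon gamma, went against ISG15. It stood at 0.145 and 0.319 FPKM in D0, 1.14, 0.680, 0.142 and 0.131 across Ctrl, 2.05, 1.88, 2.34 and 3.20 across TD, 3.37 and 3.76 under MC, and 2.19 and 3.31 under MT. TD, MC and MT did not overlap with D0 or Ctrl. The rise over D0 was 1.44 across TD, 1.89 under MC and 1.59 under MT (SE 0.26, 0.30 and 0.30, adjusted p = 0.00223, 0.00105 and 0.00234), and that of TD over Ctrl was 1.18 (SE 0.22, adjusted p = 0.00692). The TD call against D0 was lost without D0-1. The interaction of CXCL10 was -1.48 (SE 0.37, adjusted p = 0.0400) and was lost in 18 of 23 settings. It was 1 of 7 interferon gamma targets tested, and the other 6 were not called in any comparison.

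**Figure D5:**
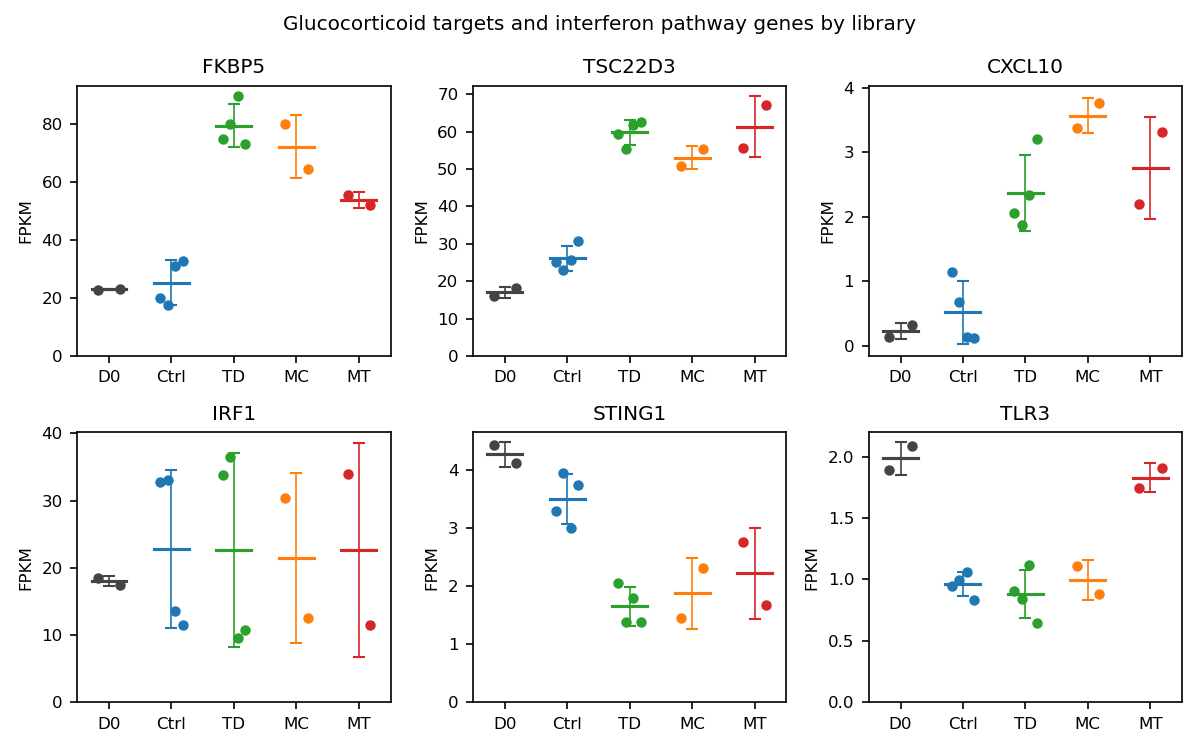
FPKM of 2 glucocorticoid targets (FKBP5, TSC22D3) and 4 interferon pathway genes by group, with 1 point a library, the line at the group mean and the bar at 1 SD (n = 2 to 4). FKBP5 and TSC22D3 lie higher in both MC libraries than in all 4 Ctrl libraries, CXCL10 is above 1.8 FPKM in all TD, MC and MT libraries, and TLR3 lies at 0.645 to 1.12 FPKM in Ctrl, TD and MC, below both D0 libraries.

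Markers of other cell types moved with the conditions too. The summed FPKM of 6 endothelial markers was 183 to 204 in D0, 91.1 to 117 across Ctrl, 31.4 to 60.9 across TD, 41.3 to 49.6 under MC and 54.3 to 58.7 under MT, and 4, 5, 6 and 6 of them were called lower. The 8 macrophage markers summed to 156 to 168 FPKM in D0, 144 to 184 across Ctrl, 210 to 228 across TD, 195 to 221 under MC and 171 to 230 under MT. Against D0, 2, 3, 3 and 3 of them were called higher in Ctrl, TD, MC and MT, and 1, 0, 0 and 1 lower. The 6 fibroblast markers summed to 4446 to 5076 FPKM in D0 and 2616 to 5546 in the cultured libraries. In the same order, 1, 1, 2 and 2 of these were called higher than D0, and 0, 0, 2 and 1 lower. Of 8 lymphocyte and NK cell markers only NKG7 had a row, and of 7 dendritic cell markers only IRF8 and TCF4. The part of these cells in the fall of ISG15 was not tested.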

How the data were processed

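The authors sequenced poly(A) RNA, used CASAVA and HISAT2 on Sscrofa11.1 (no versions are named in the sources used here), and gave FPKM per gene, as deposited, for 13644 genes in 14 libraries. The sources used here name no counting tool, annotation or use of strand. The extraction entry of the labels names other cells and another kit than the paper. The authors state DESeq2, which needs counts and was not run. Log2(FPKM + 1) of the 11527 genes that reached 1 FPKM in 2 or more libraries was fitted over all libraries with limma 3.58.1 (trend, Benjamini-Hochberg over all genes, threshold 0.05) in R 4.3.3. A check on simulated data gave each gene the same spread in all groups and no gaps like those of MT. It therefore does not cover the unequal spreads or the 0 values of these libraries. Fold changes on this scale understate low genes, and FPKM carry no interval of their own. Whole reads were solved from the FPKM steps for 13153 genes (within 0.02 of a whole read for 99.8% to 100% of values). Alternatives were the pseudocount, filter, scaling, weights, libraries, replicate block and voom. Values in every library are given for members among the 3 largest rises or falls past the threshold in a comparison and for their functional groups, and listed genes for the 2 largest. The members and lists were chosen with earlier results of these data known. Other steps used Python 3.11.15, numpy 2.4.6, pandas 2.3.3 and matplotlib 3.10.9. A result on 1 pathway gene is not reported here.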

Additional observations from a re-analysis of the deposited data

Results flagged for a closer look

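In 8 of 60 groups of 4 libraries (30 members in Ctrl and in TD), 1 library stood apart from the other 3 by more than Dixon's 95% limit. About 1 in 20 independent groups would pass this limit, but the members share the same libraries, so the 8 cannot be set against that rate. The share of all genes past the limit was not computed. The 5 in Ctrl-2 were all high: BST2 at 14.2 FPKM, IFIT1 at 5.46, IFI44 at 3.51, DHX58 at 2.15 and HERC5 at 1.17. The others were IRF7 at 7.96 FPKM in Ctrl-3, CMPK2 at 1.07 in TD-3 and TRIM21 at 6.12 in TD-2, each the highest of its group.

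The effect of T3 and Dex differed between the CTCM and static culture for IFI44 (interaction -1.70, limma adjusted p = 0.0174) and IFIT2 (-1.10, adjusted p = 0.0439). Both MT libraries were the lowest of all 14 for IFI44. They held 30 and 0 reads of it. The IFI44 call was lost in 4 of 23 settings (arrayWeights, 1 weight per condition, the replicate block and without MC-2) and the IFIT2 call in 19 of 23. The MC libraries in this contrast carry FKBP5 and TSC22D3 near the TD level, and the part of that in these differences was not tested.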

How the results depend on the processing

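Counts of members called are given in a fixed order, Ctrl, TD, MC and MT against D0, then TD against Ctrl, MC against Ctrl, MT against TD, MT against MC and the interaction, and were 3, 5, 7, 12, 0, 2, 4, 2 and 2 in the fit reported. Only counts that moved by more than 1.5 times are named here. A pseudocount of 0.1 gave 1 for Ctrl, 1 for MC against Ctrl and 1 for the interaction. No filter gave 1 for MC against Ctrl. A filter of 5 FPKM gave 1, 3, 4 and 6 against D0, then 1 for MC against Ctrl, 1 for MT against TD, 0 for MT against MC and 0 for the interaction, with fewer genes tested. Quantile normalization gave 1 for TD against Ctrl, 2 for MT against TD and 1 for MT against MC. Rescaling to equal sums gave 1 for Ctrl, TD against Ctrl, MC against Ctrl and MT against MC, and moved the median log2 fold change of all genes in MT against D0 from -0.11 to -0.48. With limma arrayWeights the counts were 14 for Ctrl, 14 for TD, 4 for MT, 2 for TD against Ctrl, 4 for MC against Ctrl and 0 for MT against TD, MT against MC and the interaction. With 1 weight per condition they were 8 for Ctrl, 10 for TD, 3 for MT and 0 for MC against Ctrl, MT against TD, MT against MC and the interaction. Fitting only the groups compared gave 5 for MT, 1 for TD against Ctrl, 6 for MC against Ctrl, 0 for MT against TD, 0 for MT against MC and 1 for the interaction. Without the MC and MT libraries TD gave 8 and TD against Ctrl 1. Chosen after seeing the data, voom on the solved reads gave 4 for MC, 0 for MC against Ctrl, 1 for MT against MC and 1 for the interaction, leaving out the MC libraries gave 1 for TD against Ctrl, and leaving out the MT libraries gave 6 for MC against Ctrl. Leaving out each replicate in turn gave 1 to 3, 1 to 6, 2 to 9, 5 to 15, 0 to 1, 0 to 6, 2 to 7, 0 to 6 and 1 to 5, where an arm left with 1 library was assumed to vary like the others. The causes of these moves were not tested.

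Whether the replicate numbers pair the libraries could not be settled. In deviations from the group mean, 22 same-numbered pairs correlated at -0.50 to 0.41, 7 of them over 0.1. The 54 other pairs correlated at -0.72 to 0.64, 14 of them over 0.1. In groups of 2 libraries these deviations mirror each other, so the correlations are not independent and cannot exclude pairing. With the replicate number as a block, 1, 3, 4 and 10 members were called against D0, then 0 for TD against Ctrl, 0 for MC against Ctrl, 1 for MT against TD, 1 for MT against MC and 0 for the interaction.

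Fold changes that were not called were not followed across the alternatives. No called fold change of a member or pathway gene reversed under any alternative. The calls of ISG15 in all 4 conditions and of PARP12 in MC and MT were kept in every one. With 2 libraries in D0, MC and MT, most other member calls were lost without D0-1 or D0-2, and the low depth of MC-2 and MT-2 limits what can be said of members near 1 FPKM.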

Other observations

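GBP1 and IFI6 have no name in the expression table and were found by their identifier in the reference, so they are outside the counts. GBP1, a GTPase induced by interferon gamma, stood at 2.77 and 2.85 FPKM in D0, 0.948, 1.26, 0.817 and 0.996 across Ctrl, 0.491, 0.736, 0.921 and 0.509 across TD, 1.18 and 0.861 under MC, and 0.349 and 4.28 under MT. It was below both D0 libraries in all cultured libraries except MT-2. IFI6, a small membrane protein induced by interferon, stood at 24.9 and 27.6 FPKM in D0, 38.0, 83.4, 35.8 and 26.5 across Ctrl, 50.3, 24.2, 29.2 and 60.4 across TD, 27.5 and 50.8 under MC, and 31.3 and 72.6 under MT. Like most members it was highest in Ctrl-2 among the Ctrl libraries.

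IRF1, a factor that induces many of these genes and was chosen after its values were seen, varied more within the culture conditions than between them. It stood at 18.6 and 17.5 FPKM in D0. In Ctrl it stood at 32.8, 33.1, 13.6 and 11.6, in TD at 33.9, 36.4, 9.59 and 10.8, in MC at 30.4 and 12.5, and in MT at 33.9 and 11.5. The libraries numbered 1 and 2 in Ctrl and TD, and 1 in MC and MT, were the high ones. The labels do not say what a number marks.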
